A study of Mus musculus with 22 samples.

Results

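Fibroblasts sorted from expanded mouse skin were compared between day 2 and day 1 after the operation. All genes with enough counts were compared, and the members were the libraries that the labels place in the expanded arm on these days, 3 from day 2 and 5 from day 1, which made 8 of the 22 libraries of the series. All mice, controls included, had surgery on the back skin. In the expanded arm (EXP) a hydrogel that swells under the skin was inserted, and the control arm (CTRL) was operated on without a hydrogel. Back skin was digested, and live fibroblasts positive for CD34 and PDGFRα and negative for CD31, CD45, CD117 and EpCAM were sorted for ultra-low-input RNA sequencing. The 7 CTRL libraries of the same days, 4 from day 1 and 3 from day 2, were used to show how far each gene changed over the same interval without an expander. Strain, sex and age of the mice are not given in the sources used here, and the labels do not say that each library is a separate animal, so p-values measure the spread between these libraries, which may be technical. Each library belongs to a single day, and day cannot be told apart from a processing batch within the EXP arm.

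As background, dermal fibroblasts in resting skin divide rarely and maintain collagen and elastic fibres. After wounding or stretch they can enter the cell cycle, secrete growth factors and chemokines, and lay down and remodel matrix. A dividing cell first makes the enzymes of DNA replication and then the cyclins, kinases and spindle proteins of mitosis, and the genes of these phases are known to be controlled in part by E2F factors and by complexes that bind CCAAT boxes and the cell cycle homology region of promoters.

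Library totals in the compared EXP groups were 23872965 to 26597561 counts on day 1 and 22933195 to 23975713 on day 2. Levels are CPM, which are counts divided by the TMM-scaled library total and scaled to a common size. In these units 3 counts correspond to 0.0955 to 0.121 CPM in day 1 EXP and 0.0990 to 0.118 CPM in day 2 EXP. These floors cover counting error only. The sort genes were read first. Pdgfra was at 692, 465, 702, 690.5 and 643 CPM in the 5 day 1 EXP libraries and 1023, 464 and 851 CPM in the 3 day 2 EXP libraries, with a log2 fold change of 0.29 (SE 0.27, edgeR adjusted p 0.621). Cd34 was at 366, 778, 336, 262 and 365 CPM on day 1 and 217, 665 and 439.7 CPM on day 2 (log2 fold change 0.06, adjusted p 0.955), and its groups overlapped. Of 13 sort and identity genes 1 was called, Dpp4 (1.16, adjusted p 0.0224), a surface peptidase used as a fibroblast marker, and it was not called without day 1 EXP replicate 3 or day 2 EXP replicate 2 or 3 (adjusted p up to 0.155). Surface proteins that the sort selected against had little RNA: over the 22 libraries the highest level was 2.09 CPM for Epcam, 3.68 for Pecam1, 0.699 for Kit and 0.243 for Ptprc. Libraries of the series also fell on 2 sides of a split, defined by 192 genes that vary together with Rnf10 after group means are removed. EXP replicates 1 and 2 of day 1 lay on its high side and the other 6 EXP libraries compared here on its low side. EXP counts are therefore also given for the low side alone, with 3 EXP libraries from each day. In CTRL, day 1 replicates 1, 2 and 3 lay on the high side, and day 1 replicate 4 and all day 2 libraries on the low side. The day change in CTRL, and the difference between arms that uses it, thus cannot be told apart fully from the split.

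Of 17554 genes tested, 398 were higher in EXP on day 2 than on day 1, which is 2.27% of the genes, and 63 were lower, which is 0.359% (edgeR quasi-likelihood F-test, adjusted p under 0.05). The median log2 fold change over all genes tested was -4.04e-04, whereas the genes called higher had a median of 2.07 and those called lower a median of -1.03. With the 32 higher genes that had at most 3 counts in every day 1 EXP library set to their bound, the first median was 1.95. EXP libraries of the 2 days did not overlap for 377 of the 398 higher genes and 61 of the 63 lower genes. Over all genes tested, 7.26% lay higher on day 2 without overlap and 5.59% lay lower. In the CTRL arm over the same interval 14 genes were higher (0.0798%) and 38 lower (0.216%). The change in EXP exceeded that in CTRL by the same model for 436 genes (2.48%) and fell short of it for 85 (0.484%), and 241 of the 398 genes that rose in EXP were among the 436. Without day 2 EXP replicate 1 there were 211 higher and 5 lower genes, without day 2 EXP replicate 3 there were 180 and 11, without day 2 EXP replicate 2 there were 229 and 24, without day 1 EXP replicate 1 there were 245 and 30, and without day 1 EXP replicate 3 there were 228 and 49. On the low side alone there were 196 and 16. DESeq2 called 742 higher and 452 lower, and limma voom 820 and 278. The difference between arms was called for 521 genes (2.97%) in all. In CTRL the count of 52 genes (0.296%) became 545 in a fit of the 7 CTRL libraries alone, against 311 in EXP (280 higher and 31 lower) in a fit of the 8 EXP libraries alone, so the order of the arms by count turned. With a covariate for the split CTRL had 3 calls, and it had 0 without day 2 CTRL replicate 1 (2157 with an unadjusted p under 0.05). Only replicate 4 of the day 1 CTRL libraries lay on the low side, so no CTRL count is given there.

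**Figure D1:**
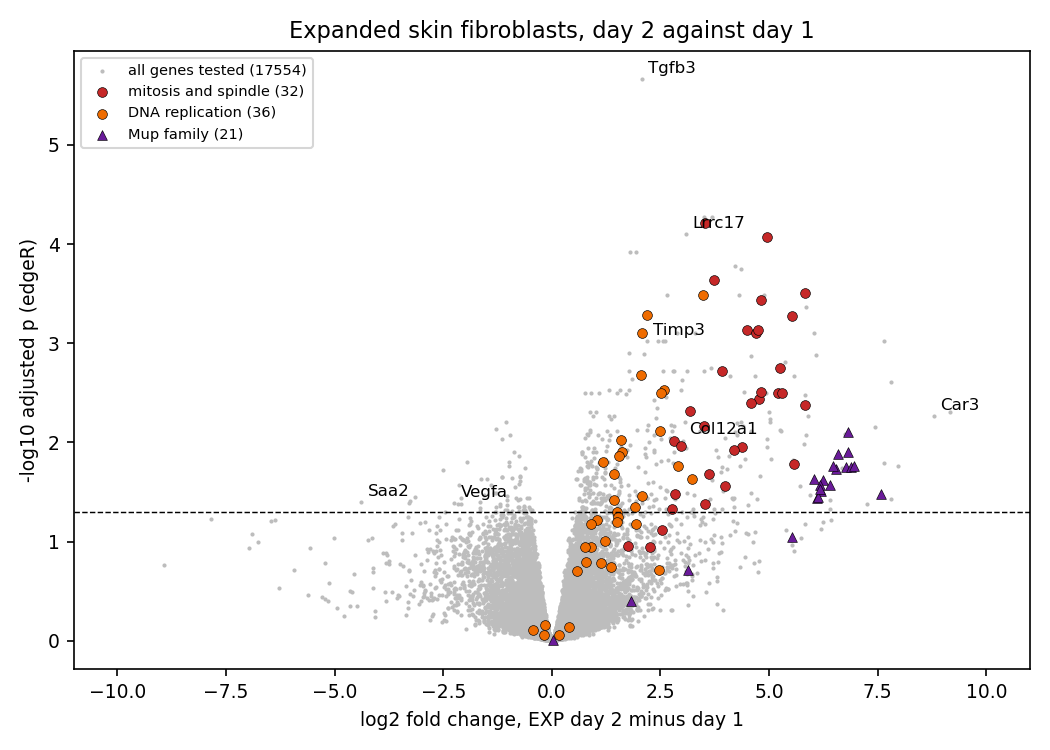
Log2 fold change (x axis, EXP day 2 minus day 1) against -log10 of the edgeR adjusted p (y axis) for the 17554 genes tested, with the dashed line at an adjusted p of 0.05. Coloured points are 32 mitosis genes, 36 DNA replication genes and 21 Mup genes, and the mitosis genes lie to the right of 0 throughout, 29 of them above the line.

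Genes of mitosis had the highest median log2 fold change of the 26 gene lists described here. All 32 genes of the mitosis and spindle list were tested, 29 were called higher and 0 lower, and all 32 were higher without overlap between the days. Their median log2 fold change was 4.28, or 4.08 with Cdc25c, which had at most 3 counts in each day 1 EXP library, set to its bound. Summed over the list, the level was 18.5, 10.99, 14.3, 19.7 and 13.9 CPM in the day 1 EXP libraries and 191, 313 and 236 CPM in the day 2 EXP libraries. CTRL libraries had 114, 120.2, 276 and 78.4 CPM on day 1 and 19.4, 33.95 and 91.6 CPM on day 2. Thus the day 1 EXP libraries lay below every CTRL library of day 1, and 2 of the 3 day 2 EXP libraries lay below the highest CTRL library of day 1. Within CTRL, all 32 members had a negative log2 fold change from day 1 to day 2, with a median of -1.63, and 0 were called by edgeR (17 had an unadjusted p under 0.05, all lower, with 5 called by DESeq2 and 7 by limma voom). For 29 members the change in EXP exceeded that in CTRL. On the low side alone 18 of the 32 mitosis genes were called higher in EXP, and 22 to 27 when a single EXP library was left out.

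By role, the kinase that drives entry into mitosis, Cdk1 (ENSMUSG00000019942), was at 0.314, 0.202, 0.363, 0.159 and 0.474 CPM in day 1 EXP and 11.4, 15.7 and 15.3 CPM in day 2 EXP (log2 fold change 5.53, SE 0.76, adjusted p 5.32e-04). Its partner Ccnb1, cyclin B1, went from 0.454, 0.121, 0.327, 0.0637 and 0.0365 CPM to 4.36, 13.1 and 5.96 CPM (adjusted p 0.00176). Ccna2, cyclin A2, was at 0.419, 0.283, 0.690, 0.478 and 0 CPM and then 6.14, 14.1 and 11.99 CPM (adjusted p 3.69e-04). None of these 3 genes reached 1 CPM in a day 1 library and all exceeded 4 CPM in each day 2 library. Of the chromosomal passenger complex, which corrects the attachment of chromosomes to the spindle, Cdca8, the gene of borealin, rose from 0.804, 0.404, 0.363, 0.637 and 0.292 CPM to 6.63, 7.59 and 6.11 CPM (log2 fold change 3.74, SE 0.49, adjusted p 2.32e-04). Aurkb, its kinase, rose from 0.0349, 0.162, 0.254, 0.191 and 0.219 CPM to 9.47, 10.1 and 10.7 CPM (log2 fold change 5.83, adjusted p 3.10e-04). Spc24 (ENSMUSG00000074476), a subunit of the NDC80 complex that joins kinetochores to microtubules, had 0.175, 0.364, 0.545, 0.382 and 0.182 CPM on day 1 and 8.22, 12.4 and 10.3 CPM on day 2 (log2 fold change 4.95, SE 0.58, adjusted p 8.50e-05). For each of these 3 genes the day 2 values lay above all day 1 values. Prc1 (ENSMUSG00000038943), which bundles the microtubules of the central spindle, was at 0.524, 0.323, 0.835, 0.732 and 0 CPM and then 10.8, 15.5 and 13.5 CPM (log2 fold change 4.75, SE 0.68, adjusted p 7.37e-04). Racgap1 (ENSMUSG00000023015), part of the centralspindlin complex of cytokinesis, was at 1.15, 0.202, 0.254, 0.796 and 0.583 CPM and then 11.6, 19.1 and 13.1 CPM (log2 fold change 4.58, SE 0.70, adjusted p 0.00134). Top2a (ENSMUSG00000020914), the topoisomerase that untangles sister chromatids, was at 1.01, 0.727, 0.436, 0.510 and 0.547 CPM and then 18.1, 29.6 and 24.2 CPM (log2 fold change 5.20, SE 0.89, adjusted p 0.00319). Stmn1 (ENSMUSG00000028832), stathmin, which destabilises microtubules, was at 0.734, 1.41, 0.654, 1.56 and 1.17 CPM and then 14.9, 15.4 and 7.97 CPM (log2 fold change 3.52, SE 0.40, adjusted p 6.06e-05). None of these 4 genes overlapped between the days, and Racgap1 is not a member of the list. All genes named in this paragraph so far, from Cdk1 to Stmn1, were called with each EXP library left out. On the low side alone the call of Top2a was lost (edgeR adjusted p 0.0520). The proliferation marker Mki67 went from 0.489, 0.0404, 0.291, 1.02 and 0.474 CPM to 9.44, 10.4 and 12.3 CPM (adjusted p 7.41e-04). The 3 members not called were Nusap1 (log2 fold change 2.52, adjusted p 0.0760), Aurka (1.76, adjusted p 0.110) and Kif23 (2.25, adjusted p 0.112).

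Promoters of the mitosis genes were read because the genes moved together, and the sequences below show the elements found in 4 of them and in Mcm5, a gene of the replicative helicase. Each sequence is from the RefSeq table for GRCm38.p6, runs 5′ to 3′ on the strand of the gene from 250 bases before to 50 bases after the start site listed for it, and has its motif matches in capitals. The motifs were the cell cycle homology region (CHR, TTTGAA or TTCGAA), the CCAAT box (CCAAT) and an E2F site (TTTGGCGC or TTTCCCGC), each searched on both strands, so that ATTGG is a CCAAT box and GCGCCAAA an E2F site read in reverse. In Cdca8 the CHR and a CCAAT box overlap. Cdk1 lies at chr10:69352863-69353162 (minus strand), Prc1 at chr7:80294201-80294500 (plus strand), Ccnb2, the gene of cyclin B2, at chr9:70421505-70421804 (minus strand), Cdca8 at chr4:124936868-124937167 (minus strand) and Mcm5 at chr8:75109259-75109558 (plus strand).
Cdk1: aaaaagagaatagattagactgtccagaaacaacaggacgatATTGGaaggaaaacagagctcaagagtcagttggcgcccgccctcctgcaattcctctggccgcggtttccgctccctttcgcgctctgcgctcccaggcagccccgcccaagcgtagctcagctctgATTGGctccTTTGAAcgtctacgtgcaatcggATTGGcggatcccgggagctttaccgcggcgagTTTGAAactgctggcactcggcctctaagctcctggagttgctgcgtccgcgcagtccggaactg
Prc1: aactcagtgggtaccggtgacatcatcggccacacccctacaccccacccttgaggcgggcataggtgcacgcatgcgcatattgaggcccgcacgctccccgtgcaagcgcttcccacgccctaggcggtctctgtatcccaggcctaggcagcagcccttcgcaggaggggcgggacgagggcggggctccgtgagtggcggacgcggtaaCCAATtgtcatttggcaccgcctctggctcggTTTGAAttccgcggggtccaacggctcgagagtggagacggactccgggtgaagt
Ccnb2: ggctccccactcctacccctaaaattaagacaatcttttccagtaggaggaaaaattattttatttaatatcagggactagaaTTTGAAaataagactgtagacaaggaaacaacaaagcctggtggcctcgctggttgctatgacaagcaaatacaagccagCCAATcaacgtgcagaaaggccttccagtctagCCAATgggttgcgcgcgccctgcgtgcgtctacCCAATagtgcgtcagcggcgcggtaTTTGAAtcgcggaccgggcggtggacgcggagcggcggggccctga
Cdca8: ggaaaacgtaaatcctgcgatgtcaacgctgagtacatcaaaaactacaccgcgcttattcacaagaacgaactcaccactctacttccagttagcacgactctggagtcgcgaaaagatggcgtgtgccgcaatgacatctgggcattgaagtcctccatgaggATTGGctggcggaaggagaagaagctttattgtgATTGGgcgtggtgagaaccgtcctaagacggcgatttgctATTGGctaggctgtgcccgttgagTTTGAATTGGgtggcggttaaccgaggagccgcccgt
Mcm5: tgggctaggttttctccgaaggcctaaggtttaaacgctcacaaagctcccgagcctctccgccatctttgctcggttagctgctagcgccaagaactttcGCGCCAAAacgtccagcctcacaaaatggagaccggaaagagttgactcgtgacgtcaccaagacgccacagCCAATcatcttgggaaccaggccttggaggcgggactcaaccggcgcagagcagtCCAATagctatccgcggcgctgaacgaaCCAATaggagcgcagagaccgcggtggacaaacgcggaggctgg

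A promoter was listed for 25 of the 32 mitosis genes. CHR letters were in 20 of the 25 (80%), against 14.1% of the promoters of 10994 tested genes and 19.4% of all 27025 promoters of this length. A CCAAT box was likewise in 20 of the 25 (80%), against 38.9% of the tested genes' promoters and 37.9% of all. The E2F letters were in 0 of the 25 mitosis promoters but in 11 of the 29 listed for the DNA replication genes (37.9%), against 2.96% of the tested genes' promoters and 1.63% of all. Over the 289 promoters listed for the 398 genes called higher, 29.1% held CHR letters, 51.9% a CCAAT box and 7.27% the E2F letters, while over the 48 listed for the 63 genes called lower the shares were 16.7%, 33.3% and 4.17%. The CHR match nearest the start site began 15 bases before it in Cdk1, 5 bases before it in Prc1 and 5 bases after it in Ccnb2. These are matches of letters, and binding was not measured.

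The machinery of DNA replication rose with a smaller median. Of 36 genes tested, 17 were called higher and 0 lower, the median log2 fold change was 1.49, and 29 were higher without overlap. The list's summed level was 267, 238, 238, 319 and 262 CPM in day 1 EXP and 850.0, 586 and 624 CPM in day 2 EXP, and the CTRL libraries had 336, 381, 399 and 331 CPM on day 1 and 214, 213 and 265 CPM on day 2. All 3 day 2 EXP libraries lay above every other library of days 1 and 2. For 18 members the change in EXP exceeded that in CTRL. Rrm2 (ENSMUSG00000020649), the regulated subunit of ribonucleotide reductase, which supplies deoxynucleotides, was at 6.36, 3.999, 5.85, 7.74 and 5.36 CPM on day 1 and 77.1, 60.6 and 57.3 CPM on day 2 (log2 fold change 3.47, SE 0.46, adjusted p 3.22e-04). Chaf1b (ENSMUSG00000022945), a subunit of the chromatin assembly factor that loads histones on new DNA, was at 5.24, 3.84, 4.10, 7.96 and 4.85 CPM and then 28.6, 17.2 and 19.95 CPM (log2 fold change 2.07, SE 0.31, adjusted p 7.88e-04). Rrm2 and Chaf1b were called in each alternative fit and with each EXP library left out. Of the MCM helicase, Mcm5 was at 4.51, 5.45, 4.90, 9.30 and 6.27 CPM and then 49.3, 24.8 and 29.1 CPM (log2 fold change 2.50, adjusted p 0.00766), and Mcm6 was also called (1.43, adjusted p 0.0206). Mcm5 was not called without day 2 EXP replicate 1 (adjusted p up to 0.0501), and Mcm6 not without day 1 EXP replicate 3 or day 2 EXP replicate 1 or 3 (adjusted p up to 0.132). Mcm2 (1.93, adjusted p 0.0660), Mcm4 (1.04, adjusted p 0.0604), Mcm7 (0.91, adjusted p 0.0660) and Mcm3 (0.91, adjusted p 0.112) did not pass. Pcna, the sliding clamp of the replication fork, was at 44.3, 40.4, 51.8, 42.3 and 43.6 CPM and then 46.05, 36.7 and 37.3 CPM (log2 fold change -0.15, adjusted p 0.702), and its groups overlapped. On the low side alone 5 of the 36 were called, and without day 2 EXP replicate 1 there were 7. Families grouped by gene name were chosen after their values were seen, and members of the lists were not taken out of them. Kinesins and centromere proteins of the mitosis list may thus be counted again here. By edgeR 9 of 31 kinesin genes, 8 of 21 centromere protein genes and 4 of 6 condensin subunits were higher. So were 4 of 10 Fanconi anaemia genes and 7 of 33 replication-dependent histone genes, and edgeR called 0 lower in each family. At an unadjusted p under 0.05, 2 kinesin genes, 1 centromere protein gene and 1 Fanconi anaemia gene were lower, and DESeq2 and limma voom each called 1 centromere protein gene lower. The histone genes are near-identical copies, and their single values are uncertain.

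Among regulators of the earlier G1 phase, 2 of 19 tested genes were called higher by edgeR and 0 lower, with a median log2 fold change of 0.24. There were 2 lower at an unadjusted p under 0.05, and DESeq2 called 1 lower and limma voom 0. Ccnd1 (ENSMUSG00000070348), cyclin D1, was at 12.2, 9.13, 7.48, 16.6 and 18.3 CPM on day 1 and 34.2, 44.4 and 37.2 CPM on day 2 (log2 fold change 1.60, SE 0.33, adjusted p 0.0112). Rbl1 (ENSMUSG00000027641), the pocket protein p107, was at 0.908, 2.63, 3.89, 3.88 and 4.70 CPM and then 12.6, 10.6 and 8.84 CPM (log2 fold change 1.74, SE 0.37, adjusted p 0.0119). Neither gene's groups overlapped. Ccnd1 was not called without day 2 EXP replicate 2 (adjusted p up to 0.0588), and Rbl1 not without day 2 EXP replicate 1 (adjusted p up to 0.0621). The inhibitor Cdkn1c went from 22.6, 17.7, 9.37, 3.34 and 2.52 CPM to 1.78, 2.16 and 1.63 CPM. Its groups did not overlap, but it did not pass (log2 fold change -2.58, SE 0.77, adjusted p 0.0767). Cdkn1a, the inhibitor p21, had a log2 fold change of -0.47 in EXP (adjusted p 0.182) and 0.95 in CTRL (adjusted p 0.0345). The difference between the arms in Cdkn1a of -1.42 passed (adjusted p 0.00694). Tob1 (ENSMUSG00000037573), a protein that restrains proliferation, was among the largest falls, from 82.7, 32.6, 44.02, 32.4 and 16.4 CPM to 8.09, 13.2 and 8.005 CPM (log2 fold change -2.09, SE 0.52, adjusted p 0.0362). Its call was lost without day 1 EXP replicate 1 or 3 or day 2 EXP replicate 1, 2 or 3 (adjusted p up to 0.164).

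**Figure D2:**
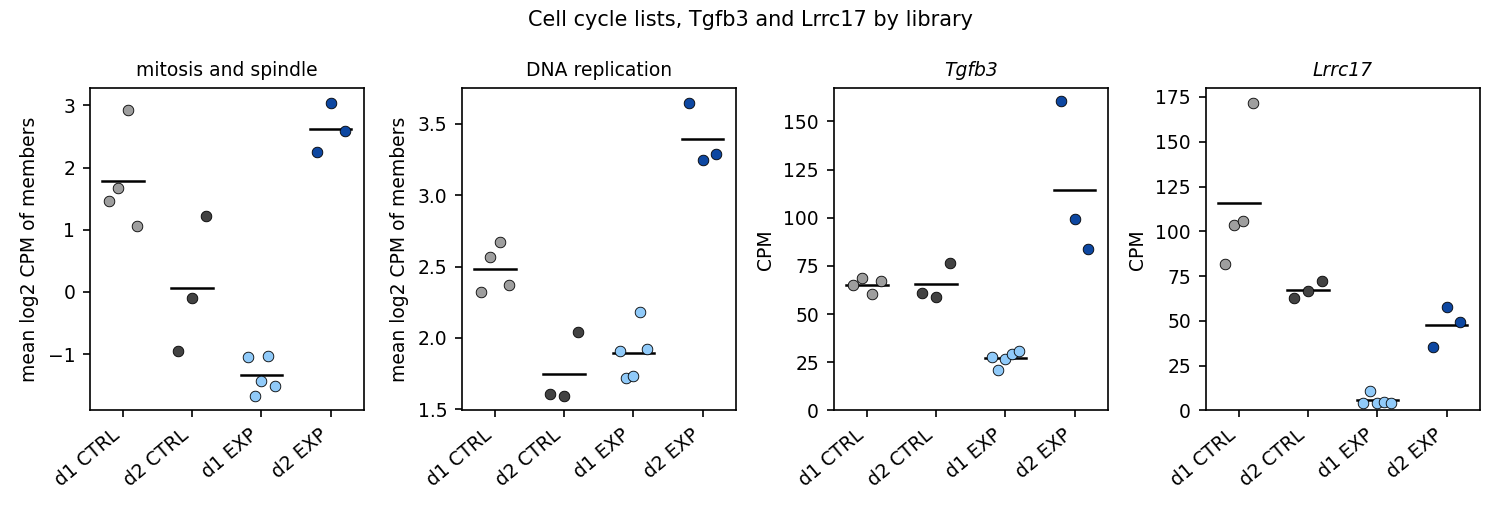
Mean log2 CPM of the mitosis and DNA replication lists and CPM of Tgfb3 and Lrrc17 (y axes) in each library of days 1 and 2, by arm and day (x axis, d1 and d2), with a line at each group's mean. In all 4 panels the 3 day 2 EXP libraries lie above the 5 day 1 EXP libraries, and Lrrc17 in day 2 EXP lies below every CTRL library.

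Secreted growth regulators held the gene with the smallest p in the comparison. Tgfb3 (ENSMUSG00000021253), a transforming growth factor beta ligand, was at 27.7, 21.2, 26.5, 29.6 and 30.7 CPM in day 1 EXP and 160.3, 99.2 and 83.99 CPM in day 2 EXP (log2 fold change 2.08, SE 0.18, adjusted p 2.15e-06). The lowest day 2 library was above the highest day 1 library. In CTRL it was at 64.9, 68.9, 60.3 and 67.1 CPM on day 1 and 60.8, 58.9 and 76.5 CPM on day 2 (log2 fold change 0.00, adjusted p 0.997), and the difference between arms was 2.07 (adjusted p 5.05e-04). Day 1 EXP lay below all CTRL libraries and day 2 EXP above all of them. Lrrc17 (ENSMUSG00000039883), a secreted leucine-rich repeat protein known to inhibit osteoclast formation, was at 3.98, 10.6, 4.36, 4.90 and 4.27 CPM and then 35.6, 57.9 and 49.3 CPM (log2 fold change 3.08, SE 0.35, adjusted p 7.99e-05). CTRL had 81.98, 104, 106 and 172 CPM on day 1 and 62.9, 66.7 and 72.3 CPM on day 2, so the day 2 EXP libraries lay below all CTRL libraries. Lrrc17 was the only one of 14 tested genes of the RANKL axis and fibroblast growth factor list that was called in EXP. Igf1, the insulin-like growth factor, was at 51.2, 134, 56.04, 40.3 and 39.6 CPM and then 146, 115 and 106 CPM (log2 fold change 0.93, adjusted p 0.171). It was not called in EXP, but its difference between arms of 2.50 passed (adjusted p 0.0171), with a CTRL log2 fold change of -1.57 (adjusted p 0.0932). Of 25 tested Wnt pathway genes, 1 was called higher by edgeR and 0 lower, with 2 lower at an unadjusted p under 0.05. DESeq2 called 1 lower and limma voom 0. This was Lgr5 (ENSMUSG00000020140), a receptor for R-spondins that enhance Wnt signals, at 33.9, 13.05, 41.1, 21.7 and 38.9 CPM and then 183, 168 and 106 CPM (log2 fold change 2.36, SE 0.42, adjusted p 0.00370). CTRL libraries had 34.4, 47.3, 49.1 and 50.6 CPM on day 1 and 10.2, 9.93 and 19.4 CPM on day 2. The other largest changes in the list, Wnt11 (-2.43, adjusted p 0.0947) and Notum (-2.11, adjusted p 0.202), did not pass. Tgfb3, Lrrc17 and Lgr5 were called with each EXP library left out, and Lgr5 was not called on the low side alone.

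Matrix genes rose in small numbers in each class, and edgeR called 0 lower in the 6 matrix lists. At an unadjusted p under 0.05, 2 collagen processing genes, 2 small proteoglycan and elastic fibre genes and 1 protease or inhibitor gene were lower, and DESeq2 and limma voom each called 1 gene of the small proteoglycan and elastic fibre list lower. Of 11 fibrillar collagen genes 1 was higher. In the basement membrane and network list, which holds laminins and nidogens beside collagens, 2 of 22 genes were higher. These 2 were Col12a1 and Col8a1, and no laminin, nidogen or collagen IV gene was called. The 2 lists' median log2 fold changes were 0.70 and 0.33. The summed fibrillar level overlapped between the days, at 81705 to 157644 CPM in day 1 EXP and 57153 to 154298 CPM in day 2 EXP. Col1a1, Col1a2 and Col3a1 together held a mean of 12.24% of counts in day 1 EXP and 12.23% in day 2 EXP. Col12a1 (ENSMUSG00000032332), a collagen that decorates fibrils under load, was at 33.3, 44.9, 50.8, 34.6 and 40.8 CPM on day 1 and 421, 198 and 380.1 CPM on day 2 (log2 fold change 3.03, SE 0.60, adjusted p 0.00957). CTRL went from 43.2, 32.5, 50.96 and 47.02 CPM to 7.32, 6.53 and 8.13 CPM (adjusted p 0.116), and the difference between arms of 5.59 passed (adjusted p 0.00467). Thus day 1 levels of the arms overlapped and day 2 levels did not. On the low side alone the call of Col12a1 was lost. Col8a1 (ENSMUSG00000068196), a short-chain network collagen, rose from 29.6, 57.8, 49.4, 63.1 and 77.1 CPM to 299, 184 and 156 CPM (log2 fold change 1.94, SE 0.49, adjusted p 0.0391), and it was not called when any 1 EXP library was left out, other than day 1 EXP replicate 5 (adjusted p up to 0.182). Col5a2, a fibrillar collagen that regulates fibril width, went from 984, 1046, 1099, 946 and 1088 CPM to 1486, 1844 and 1717 CPM (log2 fold change 0.70, SE 0.15, adjusted p 0.0131), and it was not called without day 1 EXP replicate 1 or day 2 EXP replicate 2 or 3 (adjusted p up to 0.0954). In collagen processing 2 of 24 were higher, Fkbp10 (0.84, adjusted p 0.0114), a chaperone of procollagen, and P4ha2 (0.87, adjusted p 0.0331), a subunit of prolyl hydroxylase. In small proteoglycans and elastic fibres 3 of 25 were higher, Bgn (0.87, adjusted p 0.0165), biglycan, and the fibulins Fbln2 (0.92, adjusted p 0.0476) and Fbln5 (0.93, adjusted p 0.0482). Fkbp10 was not called without day 2 EXP replicate 2 or 3 (adjusted p up to 0.0738), P4ha2 not without day 1 EXP replicate 1, 3, 4 or 5 or day 2 EXP replicate 2 or 3 (adjusted p up to 0.175), and Bgn not without day 1 EXP replicate 1 or day 2 EXP replicate 1 or 2 (adjusted p up to 0.0986). Fbln2 was not called when any 1 EXP library was left out, other than day 1 EXP replicate 5 (adjusted p up to 0.262), and Fbln5 not when any 1 EXP library was left out, other than day 1 EXP replicate 1 (adjusted p up to 0.183).

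Matricellular proteins and proteases signal to cells and reshape the matrix rather than build it. Of 16 matricellular genes 3 were higher, with a list median of 0.49. Spp1 (ENSMUSG00000029304), osteopontin, was at 37.5, 18.6, 4.76, 18.6 and 16.2 CPM on day 1 and 67.6, 238 and 78.9 CPM on day 2 (log2 fold change 2.74, SE 0.51, adjusted p 0.00663). Ccn5 (ENSMUSG00000027656), a member of the CCN family, was at 79.8, 130.5, 51.6, 43.4 and 61.7 CPM and then 286, 361 and 333 CPM (log2 fold change 2.15, SE 0.48, adjusted p 0.0198). Postn (ENSMUSG00000027750), periostin, was at 287, 204, 259, 137 and 153 CPM and then 774, 525 and 563 CPM (log2 fold change 1.58, SE 0.41, adjusted p 0.0436). None of the 3 overlapped between the days in EXP. Spp1 was not called without day 2 EXP replicate 2 (adjusted p up to 0.0608), Ccn5 not without day 1 EXP replicate 1 or 3 or day 2 EXP replicate 1, 2 or 3 (adjusted p up to 0.0799), and Postn not when any 1 EXP library was left out (adjusted p up to 0.172). Postn fell in CTRL over the same interval, from 846, 233, 757 and 392 CPM to 96.6, 53.5 and 161 CPM (log2 fold change -2.42, adjusted p 0.0323). Of 22 matrix proteases and inhibitors 4 were higher. Timp3 (ENSMUSG00000020044), a matrix-bound inhibitor of metalloproteinases, was at 64.5, 81.2, 18.2, 56.05 and 70.6 CPM and then 304, 332 and 154 CPM (log2 fold change 2.18, SE 0.33, adjusted p 9.49e-04). Mmp11 (ENSMUSG00000000901), stromelysin 3, was at 31.9, 18.7, 29.6, 26.05 and 31.1 CPM and then 141, 116 and 104 CPM (log2 fold change 2.13, SE 0.33, adjusted p 0.00128). CTRL levels of Timp3 were 210.1, 217, 203 and 260.0 CPM on day 1 and 126, 125 and 119 CPM on day 2, so its day 1 EXP libraries lay below every CTRL library. Mmp23 rose by 1.23 (adjusted p 0.0123), and Mmp9, gelatinase B, was at 0.105, 0.0404, 0, 0.0637 and 0 CPM and then 0, 5.55 and 1.18 CPM (adjusted p 0.0151). Mmp23 was not called without day 2 EXP replicate 2 or 3 (adjusted p up to 0.0934), and Mmp9 not without day 2 EXP replicate 2 (adjusted p up to 0.135). Timp3 and Mmp11 were called in each alternative fit and with each EXP library left out. None of 13 tested myofibroblast contractile genes was called by edgeR, DESeq2 or limma voom, 4 had an unadjusted p under 0.05, all higher, and the list median was 0.60.

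**Figure D3:**
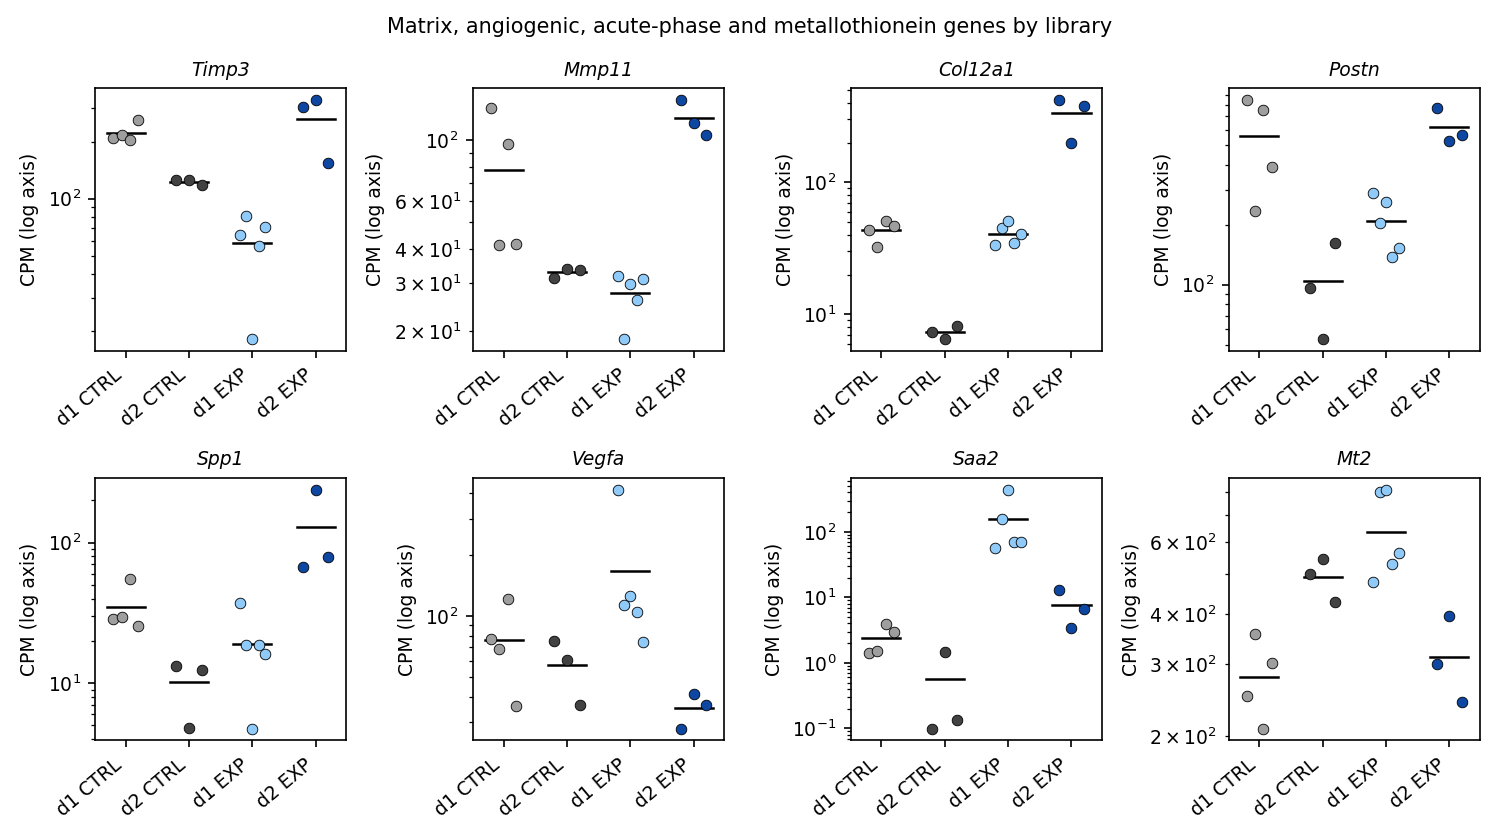
CPM on log axes of 8 genes in each library of days 1 and 2, by arm and day (d1 and d2 on the x axis), with a line at each group's mean. Timp3, Mmp11, Col12a1, Postn and Spp1 are higher in the 3 day 2 EXP libraries than in the 5 day 1 EXP libraries, and Vegfa, Saa2 and Mt2 are lower.

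In protein folding and metabolism few genes were called in EXP. Of 20 tested genes of folding in the endoplasmic reticulum, only Pdia5 (ENSMUSG00000022844), a protein disulphide isomerase, was higher, from 12.9, 20.6, 9.55, 15.8 and 16.5 CPM to 61.9, 65.04 and 46.7 CPM (log2 fold change 1.94, SE 0.24, adjusted p 1.21e-04). Its call held in each alternative fit. For 7 of the 20 the CTRL arm fell over the same interval, such as Creld2 (log2 fold change -1.49, adjusted p 0.0139) and Hsp90b1 (-1.42, adjusted p 0.0214), and for 9 the change in EXP exceeded that in CTRL. None of 24 cholesterol synthesis and uptake genes was called by edgeR, although 9 had an unadjusted p under 0.05, all higher, and DESeq2 and limma voom called 2 and 3. The list's median log2 fold change was 0.53 in EXP and -0.72 in CTRL. Mvk, mevalonate kinase, was at 6.36, 7.92, 14.9, 10.6 and 8.24 CPM and then 21.9, 21.6 and 15.6 CPM (log2 fold change 1.03, SE 0.29, adjusted p 0.0598), and its difference between arms passed (1.65, adjusted p 0.0440), as did those of Nsdhl (1.67, adjusted p 0.0255) and Lss (2.60, adjusted p 0.0233). Of 14 fatty acid genes Acss2, an acetyl-CoA synthetase, rose (1.12, adjusted p 0.0161), as did the desaturase Scd2 (1.44, adjusted p 0.0379). Of 20 amino acid genes Pycr1, of proline synthesis, rose (1.60, adjusted p 0.0276), as did Aldh1l2, of mitochondrial folate metabolism (1.13, adjusted p 0.0360). That list's median log2 fold change was -0.11, with 11 of 20 negative. Its summed level was lower on day 2 without overlap, at 2121 to 2464.5 CPM in day 1 EXP and 1712 to 2013 CPM in day 2 EXP. Acss2 was not called without day 1 EXP replicate 1 or day 2 EXP replicate 1 or 2 (adjusted p up to 0.0915), Scd2 not when any 1 EXP library was left out, other than day 1 EXP replicate 4 (adjusted p up to 0.151), Pycr1 not without day 1 EXP replicate 1, 3, 4 or 5 or day 2 EXP replicate 2 or 3 (adjusted p up to 0.148), and Aldh1l2 not without day 1 EXP replicate 1, 3 or 4 or day 2 EXP replicate 2 or 3 (adjusted p up to 0.213).

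Fewer genes fell than rose, and the count of falls ranged from 5 to 118 when a single EXP library was left out. Saa2 (ENSMUSG00000057465), an acute-phase serum amyloid, had the largest fall among the genes named, from 57.5, 156, 441, 71.1 and 71.1 CPM in day 1 EXP to 12.8, 3.38 and 6.60 CPM in day 2 EXP (log2 fold change -4.39, SE 1.11, adjusted p 0.0400). The CTRL libraries held 1.40, 1.53, 3.87 and 2.95 CPM on day 1 and 0.0996, 1.46 and 0.135 CPM on day 2, and the difference between arms was not called (adjusted p 0.486). Its paralog Saa1 was at 209, 359.9, 877, 202 and 178 CPM and then 67.6, 10.1 and 32.97 CPM without passing (log2 fold change -3.31, SE 0.91, adjusted p 0.0569), and reads of these close copies may be divided uncertainly. Saa2 was not called without day 1 EXP replicate 3 or day 2 EXP replicate 1, 2 or 3 (adjusted p up to 0.180). The antimicrobial lectin Reg3g moved the other way, from 0.0349, 1.82, 0.799, 0.541 and 0 CPM to 6.73, 6.14 and 21.7 CPM (log2 fold change 4.18, SE 0.87, adjusted p 0.0125), a call lost without day 2 EXP replicate 3 (adjusted p up to 0.114). Of 14 acute-phase and antimicrobial genes these 2, Reg3g and Saa2, were called. Vegfa (ENSMUSG00000023951), the vascular growth factor, fell from 417, 114, 125, 104 and 74.8 CPM to 27.96, 41.1 and 36.7 CPM (log2 fold change -2.24, SE 0.57, adjusted p 0.0409). Day 1 EXP replicate 1 was the highest, the groups did not overlap, and the log2 fold change without that library was -1.61 (adjusted p 0.0744). Its call was lost without day 1 EXP replicate 1 or 3 or day 2 EXP replicate 1, 2 or 3 (adjusted p up to 0.170). Vegfa was the only one of 21 glycolysis and hypoxia genes called. Mt2 (ENSMUSG00000031762), a metal-binding metallothionein, fell from 480.0, 801, 809, 530.3 and 564 CPM to 301, 396 and 242 CPM (log2 fold change -1.03, SE 0.26, adjusted p 0.0344), while CTRL went from 251, 357, 208 and 303 CPM to 501, 547 and 428 CPM and the difference between arms passed (-1.84, adjusted p 0.00825). Its arms thus changed places, with EXP above CTRL on day 1 and below it on day 2. Mt2 was not called without day 1 EXP replicate 2 or 3 or day 2 EXP replicate 1 or 3 (adjusted p up to 0.181). It was the only one of 14 glucocorticoid-responsive and metallothionein genes called by edgeR. That list's median was -0.34, with 11 of 14 negative. At an unadjusted p under 0.05, 4 were lower and 0 higher, and DESeq2 called 3 lower and limma voom 1.

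Receptors and transporters were also among the falls. Cntfr (ENSMUSG00000028444), the receptor subunit for ciliary neurotrophic factor, fell from 121, 14.4, 95.3, 18.5 and 32.3 CPM to 6.14, 7.28 and 5.54 CPM (log2 fold change -3.15, SE 0.78, adjusted p 0.0355). Ackr2 (ENSMUSG00000044534), a decoy receptor that removes inflammatory chemokines, fell from 58.7, 41.2, 40.9, 54.6 and 62.1 CPM to 10.3, 15.1 and 14.3 CPM (log2 fold change -1.96, SE 0.43, adjusted p 0.0156), and its difference between arms passed (-2.44, adjusted p 0.0284). Slc27a3 (ENSMUSG00000027932), of the fatty acid transport protein family, fell from 36.6, 59.99, 50.3, 57.3 and 72.4 CPM to 14.00, 24.8 and 28.9 CPM (log2 fold change -1.29, SE 0.25, adjusted p 0.00728). None of these 3 overlapped between the days. Cntfr was not called without day 1 EXP replicate 1 or 3 or day 2 EXP replicate 1, 2 or 3 (adjusted p up to 0.159), and Ackr2 not without day 2 EXP replicate 1 or 3 (adjusted p up to 0.0990). Mcoln2, a lysosomal cation channel, fell by 1.39 on the log2 scale (adjusted p 0.0267), with a difference between arms of -1.92 (adjusted p 0.0290). The other largest falls were Chka (-2.17), choline kinase, Rcc1l (-2.14), Gclm (-1.65), a subunit of the enzyme that limits glutathione synthesis, B3galt6 (-1.65), which builds the linker of proteoglycans, Ctdp1 (-1.63), Raly (-1.57), the importin Kpna4 (-1.50) and the chaperone Hspa4 (-1.20). Gclc, the catalytic partner of Gclm, named after its value was seen, was also lower (log2 fold change -1.04, adjusted p 0.0425). Of the 15 largest falls, Slc27a3 alone was called in each alternative fit other than those that leave out a library, and its call was lost without day 2 EXP replicate 1 (adjusted p up to 0.0538). The calls of the others of these 15, except Ackr2, were each lost in 3 to 7 of the 8 fits that leave out an EXP library, with adjusted p up to 0.211. Of the 26 lists other than markers of cells, ribosome biogenesis had the lowest median (-0.45), with 24 of 25 negative, 2 called lower and 0 higher. These were Ddx21, a helicase of pre-ribosomal RNA, from 132, 117, 104, 83.1 and 98.6 CPM to 75.4, 75.98 and 62.97 CPM (log2 fold change -0.58, SE 0.15, adjusted p 0.0362), and Rrp9, a U3 particle protein, from 59.1, 60.96, 43.3, 34.6 and 51.6 CPM to 32.7, 28.2 and 26.9 CPM (log2 fold change -0.77, SE 0.20, adjusted p 0.0379). Ddx21 was not called without day 1 EXP replicate 1 or 2 or day 2 EXP replicate 1, 2 or 3 (adjusted p up to 0.162), and Rrp9 not without day 1 EXP replicate 1, 2 or 5 or day 2 EXP replicate 1, 2 or 3 (adjusted p up to 0.144). Nsun2, an RNA methyltransferase (-0.97, adjusted p 0.00836), and Brix1, an assembly factor of the large ribosomal subunit (-0.73, adjusted p 0.0222), outside the list and named after their values were seen, also fell.

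Inflammatory and early response lists held few calls. Ccl8 (ENSMUSG00000009185), a monocyte chemoattractant, was the 1 gene of 17 recruiting factors called, from 50.2, 52.1, 43.4, 66.7 and 96.5 CPM to 190.1, 267 and 159 CPM (log2 fold change 1.73, SE 0.37, adjusted p 0.0142), and its difference between arms passed (2.12, adjusted p 0.0418). Ccl8 was not called without day 1 EXP replicate 1 or 3 or day 2 EXP replicate 2 (adjusted p up to 0.0893). By edgeR 0 of 21 immediate early genes were called, but 18 had a negative log2 fold change and 7 an unadjusted p under 0.05, all lower, with 1 called lower by DESeq2 and 1 by limma voom. Among them Egr1, a transcription factor of the early growth response, was at 2571, 988, 1266, 1565 and 840.4 CPM and then 614, 625 and 842 CPM (log2 fold change -1.06, adjusted p 0.157). Of 12 genes of the IL-6 family 0 were called by edgeR, DESeq2 or limma voom, and 1 had an unadjusted p under 0.05. Il6 was at 487, 1064, 846, 1000.3 and 698 CPM and then 546, 652 and 568 CPM (adjusted p 0.459), with overlapping groups. Of 17 NF-kB genes 0 were called by edgeR, 4 had an unadjusted p under 0.05, all lower, and DESeq2 and limma voom each called 1. Of 32 interferon-stimulated genes 0 were called by any of the 3 tools and 0 had an unadjusted p under 0.05. Of 15 circadian clock genes 0 were called by edgeR, 1 had an unadjusted p under 0.05, and DESeq2 and limma voom each called 1.

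**Figure D4:**
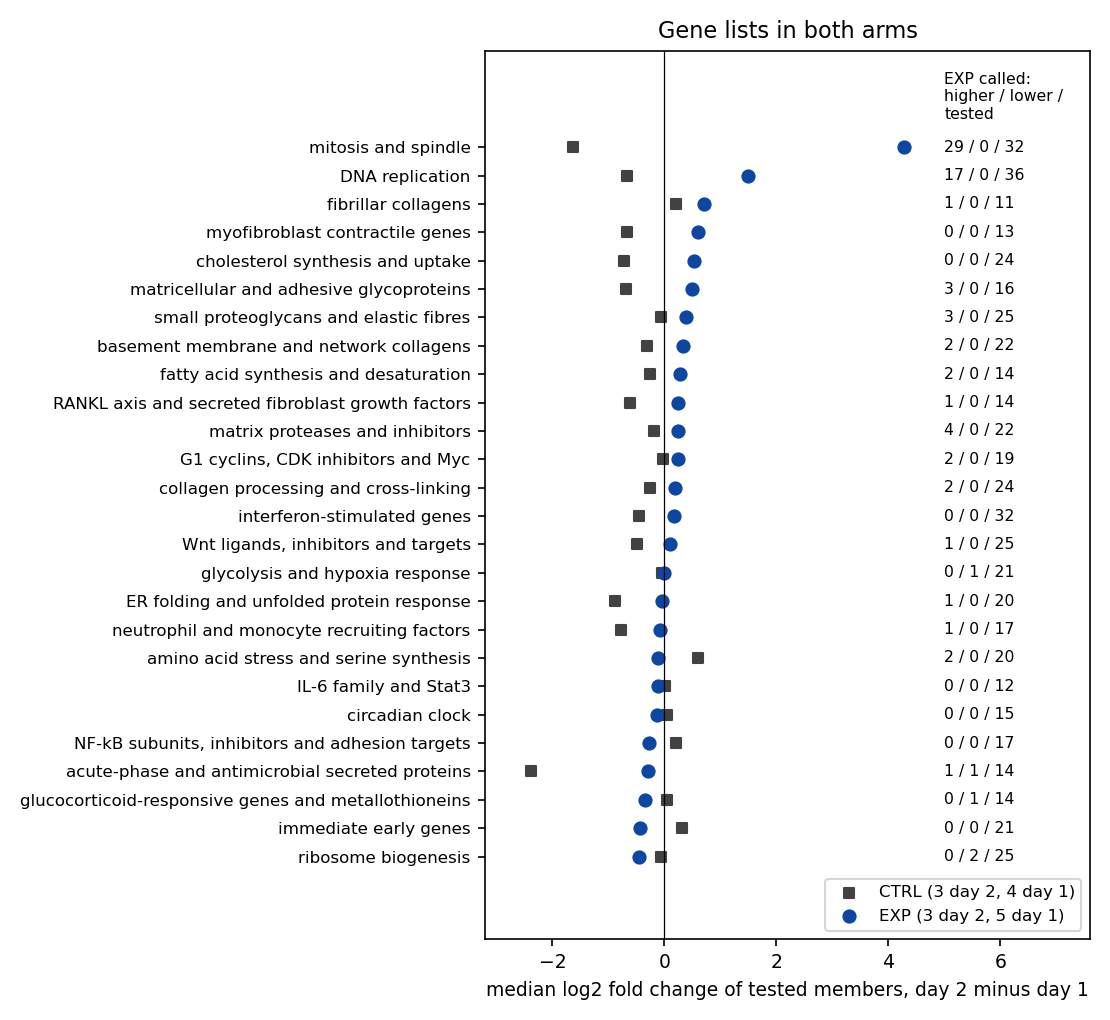
Median log2 fold change of the tested members of 26 gene lists (y axis) from day 1 to day 2 (x axis), in EXP (circles) and CTRL (squares), with the numbers of EXP genes called higher, called lower and tested at the right. Mitosis is at 4.28 in EXP and -1.63 in CTRL, DNA replication at 1.49 and -0.66, and acute-phase genes are lowest in CTRL.

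Genes called in both arms were 4. Neb, a giant actin-binding protein, rose in both, with log2 fold changes of 2.60 in EXP and 4.14 in CTRL. The other 3 rose in EXP and fell in CTRL. F3 (ENSMUSG00000028128), tissue factor, which starts coagulation, was at 54.9, 87.5, 38.8, 14.6 and 19.8 CPM in day 1 EXP and 176, 80.4 and 232 CPM in day 2 EXP (log2 fold change 1.92, SE 0.46, adjusted p 0.0309). Its CTRL libraries were at 57.8, 77.5, 96.6 and 101 CPM on day 1 and 10.6, 10.3 and 7.91 CPM on day 2 (log2 fold change -3.11, adjusted p 0.0214). The EXP groups overlapped, and the CTRL groups did not. Rgs4 (ENSMUSG00000038530), which shortens G protein signals, was at 7.41, 6.54, 1.96, 3.98 and 3.87 CPM in day 1 EXP and 8.15, 15.7 and 22.8 CPM in day 2 EXP (log2 fold change 1.71, SE 0.46, adjusted p 0.0498), and it changed by -2.85 in CTRL (adjusted p 0.0323). F3 was not called in EXP without day 1 EXP replicate 1, 3 or 5 or day 2 EXP replicate 1 or 3 (adjusted p up to 0.184), and Rgs4 not when any 1 EXP library was left out, other than day 2 EXP replicate 1 (adjusted p up to 0.270). Postn, described above, was the third. Of the 398 genes that rose in EXP, 293 had a negative log2 fold change in CTRL.

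Markers of other cells were read beside these results. Of 8 adipocyte markers 6 were tested and 3 were called higher, with a list median of 6.32, or 3.67 with the 3 genes that had at most 3 counts in every day 1 EXP library set to their bound. Cidec, a lipid droplet protein, was at 0.0349, 0.0808, 0, 0 and 0 CPM in day 1 EXP and 17.6, 1.02 and 1.14 CPM in day 2 EXP (adjusted p 0.0174). Adipoq, adiponectin, was at 0.0349, 0, 0, 0 and 0 CPM and then 6.30, 1.10 and 0.569 CPM (adjusted p 0.0368), and Cfd, adipsin, at 0.175, 0.121, 0, 0.0318 and 0.219 CPM and then 26.7, 1.18 and 0.531 CPM (adjusted p 0.0466). Day 2 EXP replicate 1 was the highest library for each. Cidec was not called without day 1 EXP replicate 1 or 3 or day 2 EXP replicate 1 (adjusted p up to 0.185), Adipoq not when any 1 EXP library was left out (adjusted p up to 0.211), and Cfd not when any 1 EXP library was left out (adjusted p up to 0.524). The list's summed level, made up mostly of Lpl, lipoprotein lipase, was 57.1 to 369 CPM on day 1 and 356 to 666 CPM on day 2. On the low side alone 1 marker was called, with limma voom 1 and with DESeq2 5. For 9 other lists of markers (keratinocytes, macrophages, neutrophils, endothelium, pericytes, melanocytes, Schwann cells, skeletal muscle and lymphocytes) 0 of 49 tested genes were called by edgeR in EXP, 8 had an unadjusted p under 0.05, and DESeq2 called 1 and limma voom 2. Summed macrophage markers were at 64.8 to 90.2 CPM on day 1 and 99.6 to 172 CPM on day 2. Neutrophil markers summed to 5.54 to 15.04 and 17.2 to 20.7 CPM, with Cxcr2 at 0 in all 8 libraries. Both sums were higher on day 2 without overlap. All 6 tested macrophage markers and 2 of 3 tested neutrophil markers had a positive log2 fold change. Keratinocyte markers summed to 3.56 to 20.8 and 6.41 to 7.10 CPM, and endothelial markers to 1.02 to 8.73 and 2.24 to 7.78 CPM. The part of other cells in the results was not tested. In bulk libraries more cells of a type and more RNA per cell cannot be told apart.

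The largest single rises included genes usually known from adipose tissue and liver. Car3 (ENSMUSG00000027559), carbonic anhydrase 3, abundant in fat and muscle, was at 0.0349, 0.0404, 0.145, 0 and 0.109 CPM in day 1 EXP and 75.9, 6.49 and 10.4 CPM in day 2 EXP (log2 fold change 8.80, SE 1.60, adjusted p 0.00538). Without day 2 EXP replicate 1 the log2 fold change of Car3 was 6.93 (adjusted p 0.0372), and it was not called by limma voom, with the replicate block or on the low side alone (adjusted p up to 0.235). CTRL had 3.46, 0.212, 13.1 and 16.6 CPM on day 1 and 0.349, 0.784 and 0.764 CPM on day 2. Major urinary protein genes (Mup), which encode secreted lipocalins and were grouped after their values were seen, gave 17 higher of 21 tested, with a median log2 fold change of 6.24 in EXP and -2.05 in CTRL. Their summed level was 1.19, 2.95, 0.981, 12.3 and 1.24 CPM in day 1 EXP and 730.4, 91.96 and 74.01 CPM in day 2 EXP. CTRL libraries held 24.9, 12.5, 96.1 and 46.4 CPM on day 1 and 1.64, 10.2 and 15.8 CPM on day 2. Day 2 EXP replicate 1 was the highest of the libraries of days 1 and 2, and 0 Mup genes were called by edgeR without it (17 had an unadjusted p under 0.05). By limma voom 0 were called too, and on the low side alone 0 were called and 18 had an unadjusted p under 0.05. Among the 15 largest rises named, 10 were Mup genes, from Mup17 (6.04, adjusted p 0.0232) to Mup7 (6.90, adjusted p 0.0175). These genes are near-identical copies, and the value of any single copy is uncertain.

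**Figure D5:**
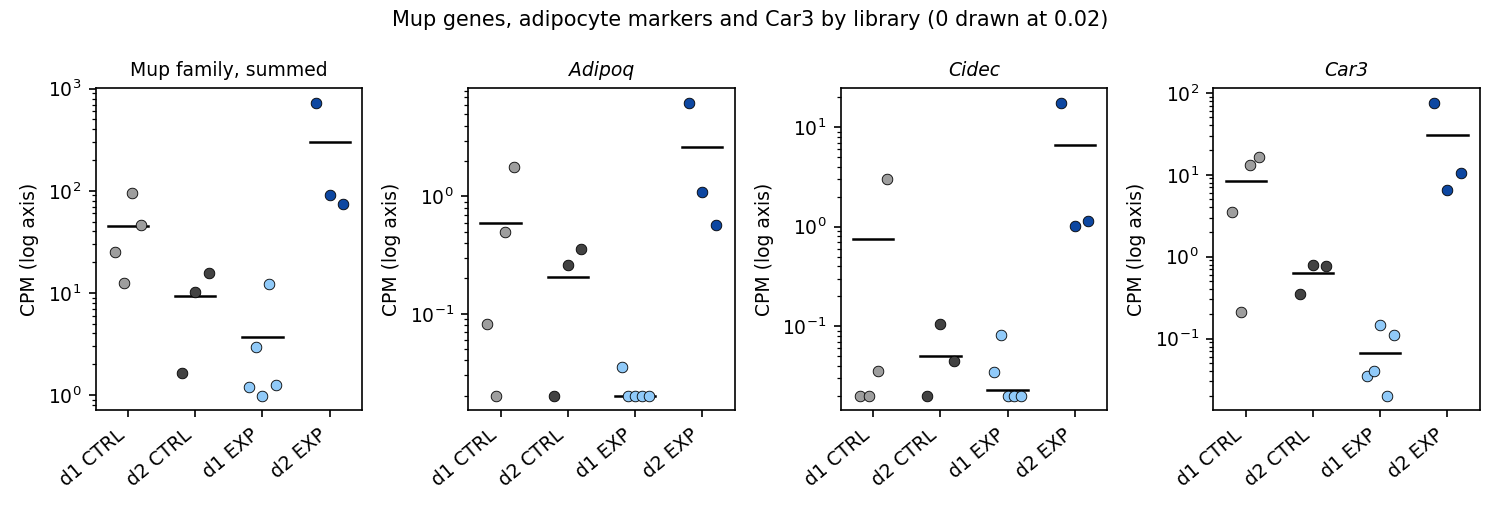
CPM on log axes, with 0 drawn at 0.02, of the summed Mup genes, Adipoq, Cidec and Car3 in each library of days 1 and 2, by arm and day, with a line at each group's mean. All 3 day 2 EXP libraries lie above the 5 day 1 EXP libraries in each panel, with replicate 1 highest.

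Some named genes share exonic sequence with another gene. In GENCODE M21, 39 of the 113 named genes have an exon that overlaps an exon of a neighbour, among them Tgfb3, Lrrc17, Stmn1, Prc1, Top2a, Cdca8, Ccnd1, Timp3, Mmp11, Spp1, Mt2, Pdgfra and Cd34. Whether counting used strand is not given in the sources used here, so the counts of these genes may include reads of the neighbour.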

How the data were processed

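The authors deposited raw read counts per gene for 22 mouse fibroblast libraries, with Ensembl identifiers. Trimmomatic and the mm39 build are named in the submitters' processing notes, and the aligner, counter, annotation and strand setting are not given in the sources used here. GENCODE M21 named 52081 of 55414 identifiers. It belongs to another build, so coordinates are given only for the RefSeq promoter table (GRCm38.p6). Ddit3 and Aldoa matched more than 1 identifier and were not tested.

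Counts were analysed as deposited with edgeR 4.0.16 in R 4.3.3. Genes passed filterByExpr on 6 groups (minimum count 10), with TMM scaling. The robust quasi-likelihood F-test was fitted to all 22 libraries with 6 group means and 16 residual degrees of freedom. Contrasts were day 2 minus day 1 in EXP, the same in CTRL, and their difference. P-values were adjusted by Benjamini-Hochberg over all genes and called under 0.05. The SE beside a log2 fold change is the absolute fold change on that scale divided by the square root of the F statistic. Log2 CPM used a prior count of 2. DESeq2 1.42.0, limma 3.58.1 (voom with quality weights), other scalings and filters, a replicate block, the library split and leaving out each library were alternatives. On simulated data with 200 of 17122 genes changed, the EXP comparison recovered 30% of 2-fold changes and 87% of 4-fold changes. Of its 120 calls 3 were false, and the CTRL comparison without changes gave 0. The changed genes were drawn from genes with many counts, and noise was drawn independently for each gene, without the library split. These rates may therefore not hold for genes with few counts or for changes tied to the split.

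The compared genes and lists were chosen with earlier results of these data known. Named genes, taken above a mean level of 5 CPM, were the 15 largest called rises and 15 largest called falls whose EXP days did not overlap and the top 10 by p of the difference between arms, to which the top 3 of each list and the sort genes were added. Clone and predicted names were left out, and other list members are named where their role is described. Replicates differed by more than sampling noise in EXP (chi-square per degree of freedom 42.4 to 157, log2 CPM correlations 0.947 to 0.972), and 0 columns belonged to no library. A member of the DNA replication list stays in the counts but is not reported here by itself.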

Additional observations from a re-analysis of the deposited data

Results flagged for a closer look

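Only the 5 day 1 EXP libraries were examined for a single value far from the others. Of 150 sets of values from them, 19 held such a value. The cutoff gives about 1 in 20 sets, or 7.5, for independent sets of normally distributed values. These sets are not independent, since 8 of the 19 are Mup copies in replicate 4, and gene CPM were not log-transformed. The 19 therefore cannot be read against 7.5 as an excess over chance. Replicate 1 was highest for Vegfa (417 CPM), Bcl3 (114.6 CPM), Wnt11 (26.9 CPM), Col24a1 (0.594 CPM) and the mean log2 CPM of the Wnt list (2.83). Replicate 2 was highest for Cd34 (778 CPM), Igf1 (134 CPM) and Lrrc17 (10.6 CPM) and lowest for Pdgfra (465 CPM). Replicate 3 was highest for Saa1 (877 CPM) and Saa2 (441 CPM). Replicate 4 was highest for Mup10 (1.69 CPM), Mup14 (1.34 CPM), Mup17 (1.18 CPM), Mup2 (1.08 CPM), Mup9 (0.923 CPM), Mup19 (0.828 CPM), Mup18 (0.732 CPM) and Mup11 (0.701 CPM). In the library split, day 1 EXP replicates 1 and 2 lay on the high side.

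For 44 of the 113 named genes the change from day 1 to day 2 differed between the arms (edgeR, adjusted p under 0.05). Values, given for 43 of them, are log2 changes in EXP minus those in CTRL. Among cell cycle genes they were Cdk1 (7.51), Spc24 (7.29), Prc1 (6.84), Top2a (6.81), Racgap1 (6.14), Cdca8 (5.56), Rrm2 (5.15), Stmn1 (4.65), Chaf1b (2.84), Ccnd1 (2.06) and Rbl1 (2.04). Matrix genes had Col12a1 (5.59), Spp1 (4.51), Col8a1 (4.50), Postn (4.00), Ccn5 (3.90), Mmp11 (3.38), Col14a1 (3.30) and Timp3 (3.03). Secreted and signalling genes had F3 (5.03), Rgs4 (4.56), Lgr5 (4.14), Lrrc17 (3.87), Igf1 (2.50), Ccl8 (2.12) and Tgfb3 (2.07). Metabolic and folding genes had Pdia5 (2.20), Mvk (1.65) and Acss2 (1.43). Car3 had a value of 12.5, and the Mup genes were Mup7 (9.63), Mup22 (9.31), Mup9 (9.27), Mup2 (8.59), Mup11 (8.46), Mup17 (8.28), Mup10 (8.28) and Mup19 (7.87), which are near-identical copies. Negative differences were those of Ackr2 (-2.44), Ctdp1 (-1.96), Mcoln2 (-1.92), Mt2 (-1.84) and Nfkbib (-0.83).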

How the results depend on the processing

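The 461 genes called in EXP kept their sign under each alternative in which they were tested. Against 461 calls, DESeq2 gave 1194, limma voom 1098 and the low side of the split alone 212, where 3 libraries per day were compared and 154 of the 461 were called. Leaving out 1 EXP library gave 191 (without day 2 EXP replicate 3) to 456. Rises made up 86.3% of the calls, 62.1% by DESeq2 and 74.7% by limma voom. In CTRL the 52 calls became 169 without TMM, 453 by DESeq2, 769 by limma voom, 545 with only the CTRL libraries and 3 with the split as a covariate. With a library left out they ranged from 0 (without day 2 CTRL replicate 1) to 95. The 521 calls of the difference between arms became 1067 by DESeq2, 1564 by limma voom and 61 on the low side alone, and 155 (without day 2 CTRL replicate 1) to 622 with a library left out. The causes were not tested. Of the 67 named genes called in EXP, 14 passed under each alternative and with each EXP library left out. Cd34 changed sign, to -0.24 with the replicate block and to between -0.39 (without day 2 EXP replicate 2) and 0.41 (without day 1 EXP replicate 2) with a library left out, and to -0.02, -0.02 and -0.09 without day 1 EXP replicate 1, 3 or 4, from 0.06 with all. A pairing of days comes only from the replicate number. Same-numbered EXP libraries had correlations of deviations of -0.056, 0.042 and 0.003, and differently numbered ones had -0.137 to 0.114. With so few libraries these values cannot show whether same-numbered libraries share an animal or a processing run. With the replicate block 320 genes were called in EXP, 36 in CTRL and 403 for the difference. Depth limits genes near 3 counts, and day cannot be told apart from a batch.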
